A study of Mus musculus with 27 samples.

Results

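The phase II conjugation enzymes are the transferases that attach glutathione, glucuronic acid or sulfate to drugs, steroids, bile pigments and lipid breakdown products. Members were taken by symbol: the glutathione S-transferase (GST) classes alpha, mu, pi, theta, kappa, omega and zeta and the microsomal GSTs. The UDP-glucuronosyltransferases (UGT) of the 1a, 2a, 2b and 3a groups and the sulfotransferases (SULT) were also taken. *Gm3776*, a gene model of the GST alpha cluster, was added to them. Of 23191 gene symbols in the table, 67 carried such a name and 47 had at least 10 counts in 6 or more libraries. These 47 were 24 of 26 GSTs, 16 of 20 UGTs and 7 of 21 SULTs. The 20 symbols below the filter were *Gstt4*, *Mgst2*, 14 SULTs (*Sult2a1* to *Sult2a6* among them), *Ugt1a2*, *Ugt1a7c*, *Ugt2a1* and *Ugt2a2*.

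Liver mRNA of 27 male C57BL/6J mice was measured by RNA-Seq to see how loss of HGFAC, a protease secreted by hepatocytes that activates hepatocyte growth factor, changes liver gene expression on 2 diets. HGFAC-KO mice carried a whole-body CRISPR deletion from the middle of exon 1 to exon 2 of *Hgfac*, and the controls were their littermates. Mice were 8 weeks old when they were put on chow or on HF/HS, a diet rich in fat and sucrose. Livers were taken after 4 weeks. The paper names different makers for the 2 diets. Effects of fat and sucrose cannot be told apart here from other differences between the diets. The groups held 7 controls on chow, 6 HGFAC-KO mice on chow, 7 controls on HF/HS and 7 HGFAC-KO mice on HF/HS, and the labels do not say which mice shared a litter or cage.

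Phase II enzymes work after the cytochrome P450 enzymes. GSTs couple glutathione to reactive electrophiles such as lipid aldehydes and epoxides, UGTs couple glucuronic acid to bilirubin, steroids, bile acids and drugs, and SULTs couple sulfate from the donor PAPS to phenols, steroids and bile acids. In the liver their genes are known targets of the nuclear receptors CAR and PXR, of the aryl hydrocarbon receptor AHR and of the antioxidant factor NRF2. Sets of near-identical genes lie side by side in the mouse genome, and the UGT1A genes share their downstream exons.

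The promoters of *Gsta1*, *Gm3776* and *Gsta2* are shown first, because these GST alpha genes of chromosome 9 resemble each other in sequence. RefSeq windows of 300 bases were matched by symbol for 42 of the 47 members, and the 250 bases before the start site are printed 5′ to 3′ in the gene's direction (GRCm38.p6). The windows are chr9:78230419-78230668 on the plus strand for *Gsta1*, chr9:78256879-78257128 on the plus strand for *Gm3776* and chr9:78347146-78347395 on the minus strand for *Gsta2*. Capitals mark the longest run that all 3 windows hold, 29 bases long.

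Gsta1: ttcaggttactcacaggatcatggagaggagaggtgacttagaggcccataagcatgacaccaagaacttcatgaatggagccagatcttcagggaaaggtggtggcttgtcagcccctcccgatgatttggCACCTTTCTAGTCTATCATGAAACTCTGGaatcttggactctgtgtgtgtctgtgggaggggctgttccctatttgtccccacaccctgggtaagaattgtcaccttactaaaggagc

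Gm3776: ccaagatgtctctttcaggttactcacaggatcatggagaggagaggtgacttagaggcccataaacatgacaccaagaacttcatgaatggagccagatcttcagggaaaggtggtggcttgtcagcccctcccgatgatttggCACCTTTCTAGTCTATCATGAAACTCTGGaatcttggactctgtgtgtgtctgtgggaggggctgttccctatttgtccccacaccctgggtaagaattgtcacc

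Gsta2: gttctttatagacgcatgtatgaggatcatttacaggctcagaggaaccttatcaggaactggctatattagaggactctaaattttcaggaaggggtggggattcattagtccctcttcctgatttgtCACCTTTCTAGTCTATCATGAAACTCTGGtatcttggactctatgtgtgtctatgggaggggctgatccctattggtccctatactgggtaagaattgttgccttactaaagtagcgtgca

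In a global alignment the *Gsta1* and *Gm3776* windows were identical in 89.7% of columns, *Gsta1* and *Gsta2* in 72.6%, and *Gsta1* and *Gsta3*, an alpha gene on another chromosome, in 52.4%. The transcripts are also alike: 90.5% of the 50-base words in the exons of *Gsta1* and 92.5% of those of *Gm3776* occur in another gene, most of them in each other, so the split of reads between them is uncertain. The same share was 49.8% for *Gsta2*, 54.3% for *Gstp2*, 33.7% for *Gstp1*, 41.7% for *Ugt2b5*, 28.8% for *Gstm3*, 18.9% for *Gstm1* and between 52.1% and 79.8% for the 6 UGT1A genes. For 25 of the 47 members it was under 5%.

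The letters TGACNNNGC, the core of the antioxidant response element that NRF2 binds, were searched on both strands of every window. They stood in the windows of 4 of 42 members (9.52%), *Gsta3*, *Gstm5*, *Gstm7* and *Mgst1*, and of 14.0% of all genes with a window. The windows of *Gsta3* (chr1:21240335-21240584, plus strand) and *Mgst1* (chr6:138140277-138140526, plus strand) are shown with the match in capitals, because *Gsta3* fell on HF/HS and *Mgst1*, the most abundant member, did not pass the test.

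Gsta3: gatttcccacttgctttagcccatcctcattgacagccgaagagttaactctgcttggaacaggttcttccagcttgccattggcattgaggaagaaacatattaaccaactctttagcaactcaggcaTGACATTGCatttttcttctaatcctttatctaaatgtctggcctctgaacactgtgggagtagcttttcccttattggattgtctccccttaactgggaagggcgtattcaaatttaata

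Mgst1: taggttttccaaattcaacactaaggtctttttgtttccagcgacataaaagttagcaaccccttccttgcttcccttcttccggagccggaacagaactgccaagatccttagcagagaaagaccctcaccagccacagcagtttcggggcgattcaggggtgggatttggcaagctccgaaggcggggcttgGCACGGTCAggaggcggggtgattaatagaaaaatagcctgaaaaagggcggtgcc

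The letters AGGTCA, a short site that many nuclear receptors bind, stood in the windows of 10 of 42 members (23.8%) and of 18.1% of all genes, on either strand. Of those 10, 5 fell on HF/HS in both genotypes, *Sult2a8* rose in both, *Sult1b1* rose in controls, and *Gstk1*, *Ugt2b37* and *Ugt2b38* passed in neither. Of the 5 UGT2B genes among them, *Ugt2b5* (chr5:87140341-87140590, minus strand) and *Ugt2b36* (chr5:87092556-87092805, minus strand) are shown with the match in capitals, as the most abundant of that family. Over all members tested, 52.2% fell on HF/HS in controls and 40.0% in HGFAC-KO mice, against 5.60% and 2.73% of all genes tested. The 5 of 10 with AGGTCA lay near the share of all members. The *Ugt2b5* window was identical to that of *Ugt2b38* in 82.3% of aligned columns and to that of *Ugt2b37* in 73.0%. The AHR core letters GCGTG stood in a window of 26.2% of members and of 35.2% of all genes. A TGACNNNGC match can overlap an AGGTCA match on the other strand, since both hold TGAC when read that way. Each match is a string of letters and not a measured binding site.

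Ugt2b5: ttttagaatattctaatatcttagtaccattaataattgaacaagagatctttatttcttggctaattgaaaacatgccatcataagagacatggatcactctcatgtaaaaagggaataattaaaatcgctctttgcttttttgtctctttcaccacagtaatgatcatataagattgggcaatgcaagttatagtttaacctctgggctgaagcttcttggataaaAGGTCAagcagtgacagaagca

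Ugt2b36: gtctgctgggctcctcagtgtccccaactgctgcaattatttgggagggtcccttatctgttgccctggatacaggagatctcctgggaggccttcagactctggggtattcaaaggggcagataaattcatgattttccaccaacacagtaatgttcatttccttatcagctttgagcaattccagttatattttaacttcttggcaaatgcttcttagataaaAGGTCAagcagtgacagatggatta

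Total counts per library ran from 36056177 to 57298657, and every value below is in CPM, with SD over mice. CPM is a TMM-scaled rate relative to the library's counts of the 13932 genes that passed a count filter. The level of *Hgfac* checked the labels: on chow the controls had 183 to 219 CPM and the HGFAC-KO mice 65.4 to 84.5 CPM, and on HF/HS these ranges were 247 to 296 and 81.8 to 101 CPM. One library stood apart: HGFAC-KO chow replicate 1 held no odd count in any row (25 other libraries had 51.3% to 52.8% odd values among their non-zero counts), and HGFAC-KO HF/HS replicate 6 had 44.4%. The counts of members called were also taken without these 2 libraries.

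Compared per kb of exon, the most abundant members over the 27 mice were *Mgst1*, the membrane-bound GST of the endoplasmic reticulum, at a mean level of 1235 CPM per kb, *Gstp1* at 743 and *Gstm1* at 566. *Ugt2b5* had a level of 297 CPM per kb, *Ugt2b36* 196, *Sult2a8* 195, *Ugt2b1* 172, *Gsta3* 158, *Sult1a1* 137 and *Ugt3a2* 112. The ranges over mice of neighbours in this order overlapped. Length was that of all annotated exons of a gene merged, not of the transcript expressed. The order and the family shares below therefore depend on the annotation. These means pool both diets, and the order differed between them: in controls on chow *Gstm1* had a mean of 847 CPM per kb and *Gstp1* 803, against 287 and 619.8 on HF/HS. *Ugt2b36* and *Sult2a8* had 244 and 169 CPM per kb in controls on chow and 155 and 231 on HF/HS. The lowest of the 47 were *Gsto2*, *Ugt1a10*, *Gm3776* and *Sult2a7*. In several families 1 gene held most of the level: *Mgst1* held 99.5% of the microsomal GST level per kb, *Sult2a8* 99.8% of SULT2, *Gstp1* 95.2% of GST pi, *Gstm1* 84.3% of GST mu and *Gsta3* 84.3% of GST alpha. In UGT2B the most abundant gene, *Ugt2b5*, held 35.0%.

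The first comparison asked what 4 weeks of HF/HS did to these genes in control mice. Most GSTs and 8 UGTs fell, 7 of them (*Gsta1* and *Gm3776* not counted) to less than 50% of their level on chow, and the sulfotransferase gene *Sult2a8* rose. Of 46 members tested, 24 (52.2%) were lower at an adjusted p under 0.05 (edgeR quasi-likelihood test, Benjamini-Hochberg over 13525 genes), against 5.60% of all genes tested. At the same threshold 2 members were higher, *Sult2a8* and *Sult1b1* (4.35%), against 4.93% of all genes. The median log2 fold change was -0.42 over members and 0.0036 over all genes. *Gsta1* and *Gm3776* passed the filter on low values through their chow mice, so a fall was built into their selection, and without them 22 of 44 members were lower, with a median of -0.41. All HF/HS mice lay below all chow mice in 34.1% of those 44 members, against 2.04% of all genes.

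In HGFAC-KO mice the same diet comparison used none of the same mice. There 18 of 45 members tested were lower (40.0%), against 2.73% of 13613 genes, and 1, *Sult2a8*, was higher (2.22%), against 3.17%. The median log2 fold change was -0.36 over members and 0.0037 over all genes, and 17 of 44 were lower without *Gsta1*. All HF/HS mice lay below all chow mice in 13 of 45 members, against 1.43% of all genes. Without the 2 libraries with few odd counts, 17 members were lower and 1 was higher, and *Sult2a8* no longer passed (adjusted p = 0.0768 by edgeR).

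**Figure D1:**
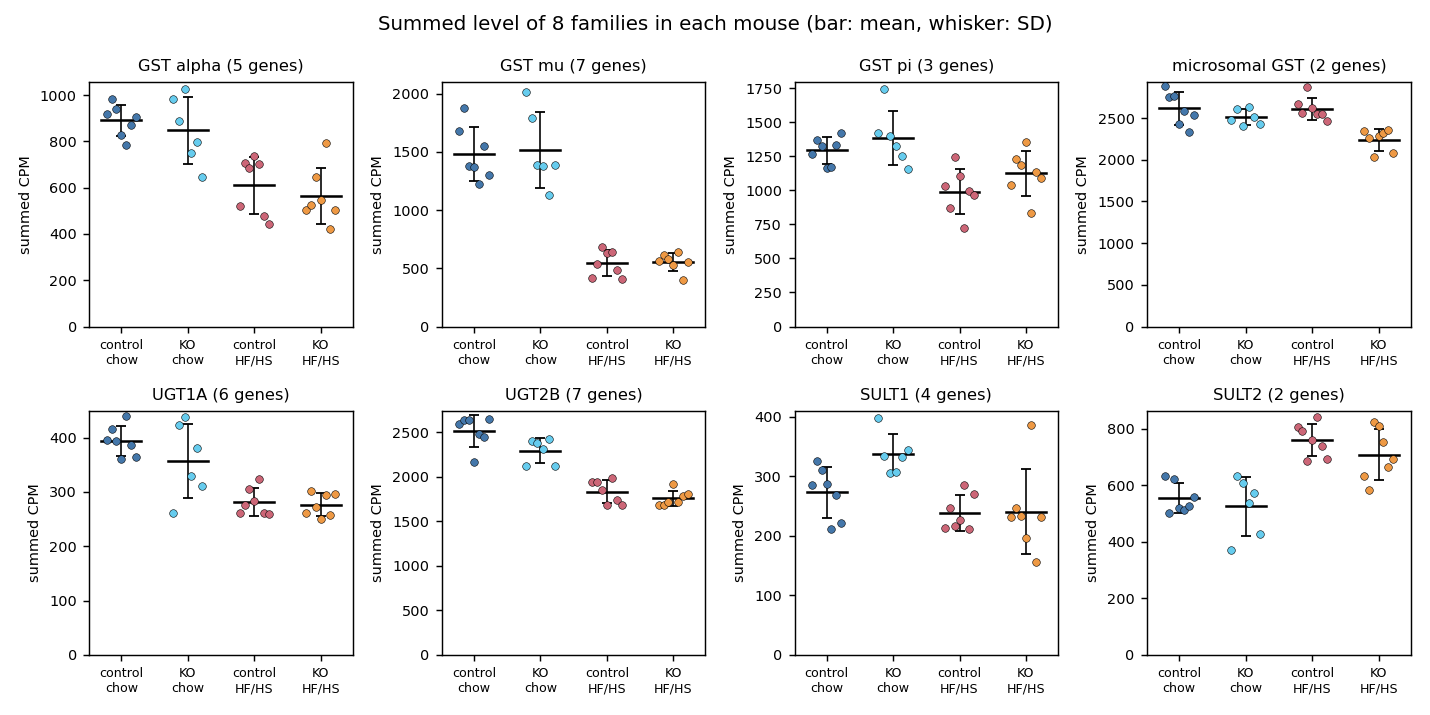
Summed level of 8 families in each mouse, in CPM on an axis from 0, with 1 point per mouse, bars at the group mean and whiskers of 1 SD. GST mu fell from a mean of 1481 to 543 CPM in controls with no overlap between the diets, while SULT2 went from 554 to 760.4 CPM.

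Summed over families, the GST mu genes had the lowest HF/HS level relative to chow. Their summed level ran from 1220.1 to 1878 CPM (median 1375) in controls on chow and from 407 to 681 CPM (median 540.0) on HF/HS. In HGFAC-KO mice it ran from 1134 to 2017 CPM (median 1389.9) on chow and from 401 to 643 CPM (median 566) on HF/HS. The HF/HS mean was 36.7% of the chow mean in controls and 36.6% in HGFAC-KO mice, and no HF/HS mouse reached the lowest chow mouse of its genotype. The UGT2B sum stood at 72.9% and 76.6% of chow, the UGT1A sum at 71.4% and 77.3%, the GST alpha sum at 68.6% and 66.5%, and the GST pi sum at 76.7% and 81.3%. The microsomal GST sum stood at 99.8% in controls and 89.1% in HGFAC-KO mice, and the SULT2 sum at 137% and 135%. Over all 47 members the summed level went from 11491 ± 704 to 9354 ± 502 CPM (SD, n = 7 and 7) in controls. In HGFAC-KO mice it went from 11229 ± 756 to 8855 ± 367 CPM (n = 6 and 7).

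The GST alpha genes *Gsta2*, *Gsta3* and *Gsta4* fell in both genotypes. *Gsta1* in both genotypes and *Gm3776* in controls were also called lower, but passed the filter only through the chow mice. *Gsta2*, an alpha GST that reduces organic hydroperoxides, ran from 7.44 to 19.0 CPM (median 12.1) in controls on chow and from 1.27 to 4.00 CPM (median 2.17) on HF/HS. In HGFAC-KO mice *Gsta2* ran from 6.31 to 24.6 CPM (median 10.3) on chow and from 1.39 to 3.12 CPM (median 2.44) on HF/HS. The diets did not overlap in either genotype, and the log2 fold change of *Gsta2* was -2.43 (SE 0.26, adjusted p = 3.32e-05) in controls and -2.32 (SE 0.29, adjusted p = 0.00038) in HGFAC-KO mice by edgeR. *Gsta4*, which conjugates the lipid peroxidation product 4-hydroxynonenal, went from a median of 44.6 CPM (33.7 to 53.4) to 18.7 CPM (13.2 to 26.99) in controls, a log2 fold change of -1.26 (SE 0.15). In HGFAC-KO mice *Gsta4* went from 34.5 CPM (28.5 to 53.6) to 17.1 CPM (12.1 to 20.1), a log2 fold change of -1.17 (SE 0.17). *Gsta3*, the most abundant alpha gene, kept 70.8% of its mean CPM in controls and 68.3% in HGFAC-KO mice, log2 fold changes of -0.50 (SE 0.11) and -0.55 (SE 0.14).

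The near-identical pair *Gsta1* and *Gm3776* was low throughout, and their values rest on few counts. *Gsta1* had 29 to 54 counts per mouse in controls on chow and 0 to 6 on HF/HS, and 13 to 72 and 2 to 17 in HGFAC-KO mice. *Gm3776* had 11 to 25 counts in controls on chow and 0 to 5 on HF/HS, where 4 of 7 libraries were at 0. Of the 130 counts of *Gm3776* in HGFAC-KO mice on chow, 88 came from replicate 1, the library with no odd counts. The log2 fold change of *Gsta1* was -3.68 (SE 0.34) in controls and -2.73 (SE 0.46) in HGFAC-KO mice, and that of *Gm3776* was -3.86 (SE 0.50) in controls, between -5.13 (without control HF/HS replicate 1, which held 5 of the 7 counts on HF/HS) and -3.63 when 1 mouse was left out. *Gm3776* did not pass the filter in HGFAC-KO mice.

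GST mu genes, which act on epoxides and quinones, fell in 6 of 7 members in controls and in 5 of 7 in HGFAC-KO mice. *Gstm1*, the main hepatic mu gene, ran from 1029.9 to 1582 CPM (median 1156) in controls on chow and from 310.3 to 547 CPM (median 425) on HF/HS. In HGFAC-KO mice *Gstm1* ran from 954 to 1739.8 CPM (median 1179) on chow and from 310.4 to 505 CPM (median 452) on HF/HS. Every mouse on HF/HS lay below the lowest chow mouse of its genotype, and the log2 fold change of *Gstm1* was -1.57 (SE 0.14, adjusted p = 3.91e-06) in controls and -1.55 (SE 0.14, adjusted p = 2.51e-05) in HGFAC-KO mice by edgeR. *Gstm3* fell further, from a median of 47.7 CPM (38.2 to 83.8) to 8.27 CPM (5.37 to 16.1) in controls, a log2 fold change of -2.54 (SE 0.24). In HGFAC-KO mice *Gstm3* went from 53.8 CPM (33.8 to 97.3) to 9.85 CPM (6.97 to 13.5), a log2 fold change of -2.46 (SE 0.24). *Gstm2*, *Gstm4* and *Gstm6* kept between 49.6% and 61.5% of their chow level in both genotypes, each without overlap of the diets. *Gstm5* passed in controls (log2 fold change -0.39, SE 0.11) and *Gstm7* in neither genotype (log2 fold changes -0.17 in controls and -0.36 in HGFAC-KO mice).

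**Figure D2:**
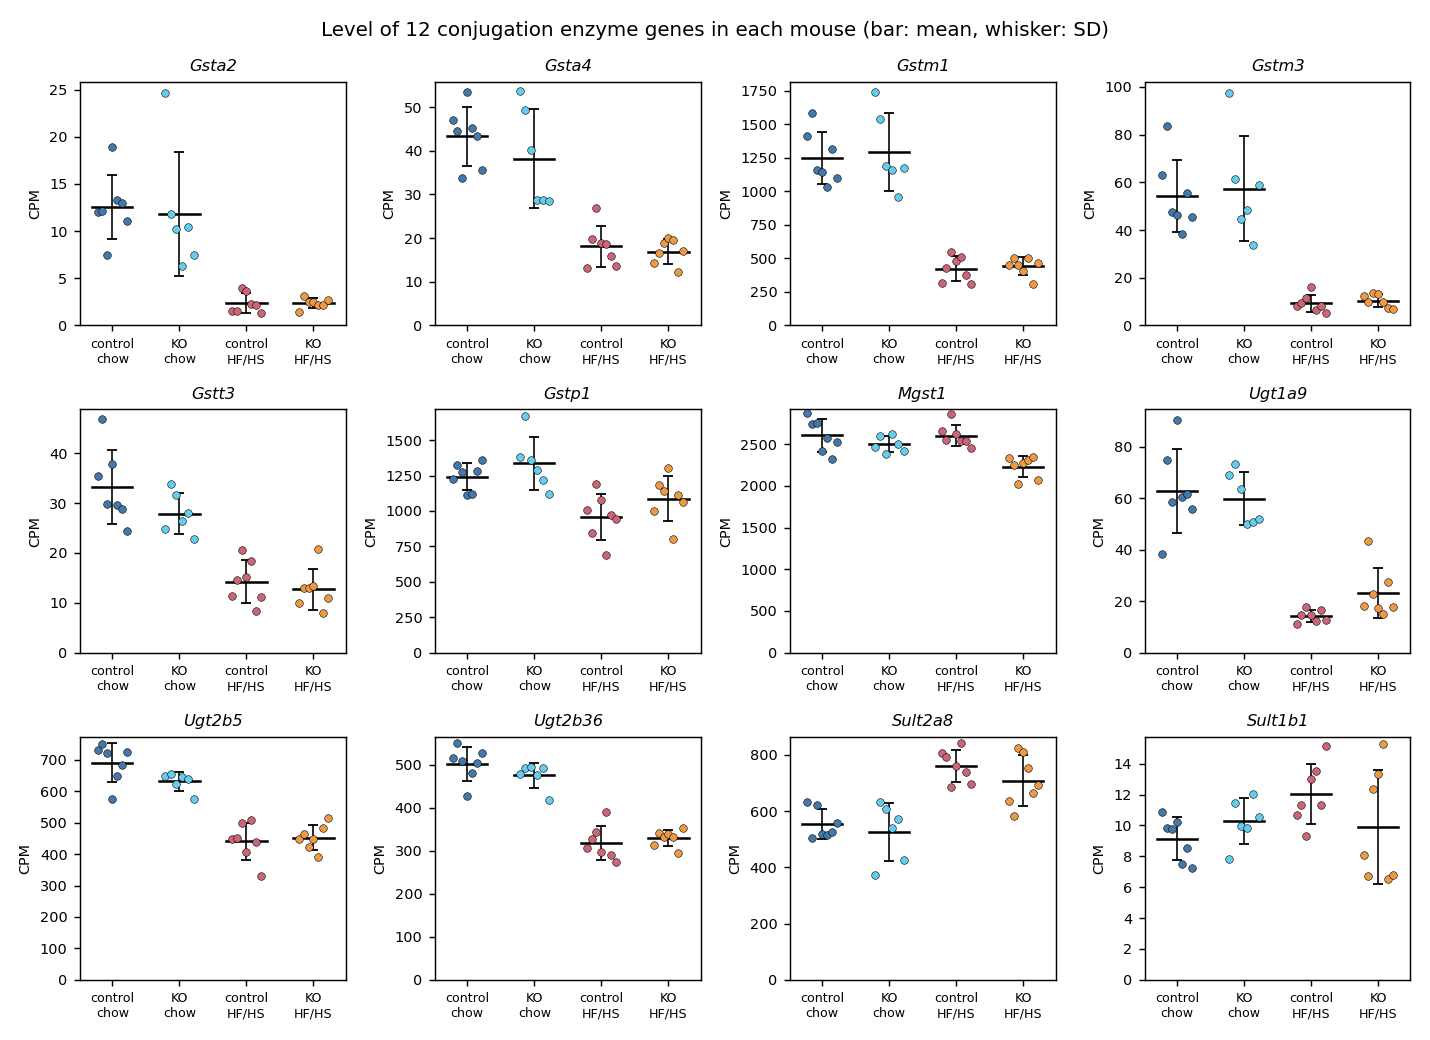
Level of 12 genes in each mouse, in CPM on axes from 0, with 1 point per mouse, bars at the group mean and whiskers of 1 SD. The HF/HS mice lie below the chow mice in Gsta2, Gsta4, Gstm1, Gstm3, Gstt3, Ugt1a9, Ugt2b5 and Ugt2b36 in both genotypes, Sult2a8 is higher on HF/HS, and Mgst1 is lowest in HGFAC-KO mice on HF/HS.

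Of the theta, pi, omega, kappa and zeta GSTs, *Gstt3* and *Gsto1* fell in both genotypes. *Gstt3*, a theta class gene, ran from 24.4 to 46.9 CPM (median 29.8) on chow and from 8.45 to 20.7 CPM (median 14.5) on HF/HS in controls, a log2 fold change of -1.23 (SE 0.19). In HGFAC-KO mice *Gstt3* ran from 22.7 to 33.8 CPM (median 27.2) and from 7.90 to 20.8 CPM (median 13.0), a log2 fold change of -1.13 (SE 0.18). *Gstt1*, the most abundant theta gene, had log2 fold changes of 0.12 (SE 0.11) and 0.0021 (SE 0.17), with neither past the threshold, and *Gstt2* passed in neither (-0.42 and -0.38). Of the pi genes, *Gstp1* kept 77.2% of its chow level in controls (log2 fold change -0.38, SE 0.10) and *Gstp2* 55.8% (-0.85, SE 0.18), and both passed in controls alone, which was not a test of a difference between genotypes. *Gstp3* passed in neither (0.19 and 0.02). *Gsto1*, an omega GST that reduces dehydroascorbate, fell to 80.2% in controls and 79.1% in HGFAC-KO mice, while *Gsto2*, with 23 counts at most in a mouse, was too low to test. *Gstk1* of mitochondria and peroxisomes and *Gstz1*, which isomerizes maleylacetoacetate in tyrosine breakdown, passed in neither genotype, with log2 fold changes between -0.05 and 0.22.

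Of the 2 microsomal GSTs, *Mgst3* passed in both genotypes and *Mgst1* in neither. *Mgst3* fell from a median of 8.60 CPM (6.89 to 10.9) to 5.47 CPM (3.16 to 7.59) in controls, a log2 fold change of -0.84 (SE 0.19), and had -0.91 (SE 0.22) in HGFAC-KO mice. *Mgst1* had a median of 2581 CPM (2329 to 2875) on chow and 2549 CPM (2459 to 2864) on HF/HS in controls, where its log2 fold change was -0.0027 (95% interval -0.12 to 0.12) and the diets overlapped. In HGFAC-KO mice *Mgst1* had a median of 2483 CPM (2389 to 2623) on chow and 2275 CPM (2022 to 2353) on HF/HS, a log2 fold change of -0.16 (SE 0.06) that did not pass (adjusted p = 0.1 by edgeR) although the diets did not overlap.

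Of 16 UGTs, 8 fell in controls and 5 in HGFAC-KO mice, and none rose in either. *Ugt1a9*, a UGT of phenols and fatty acids, ran from 38.5 to 90.6 CPM (median 60.4) on chow and from 11.3 to 17.9 CPM (median 14.5) on HF/HS in controls. In HGFAC-KO mice *Ugt1a9* ran from 50.01 to 73.5 CPM (median 57.7) and from 15.1 to 43.5 CPM (median 18.2). Diets did not overlap in either genotype, and the log2 fold change of *Ugt1a9* was -2.14 (SE 0.16, adjusted p = 9.1e-07) in controls and -1.37 (SE 0.22, adjusted p = 0.00335) in HGFAC-KO mice by edgeR. *Ugt1a1*, the bilirubin UGT and the most abundant UGT1A gene, kept 81.1% of its chow level in controls (log2 fold change -0.30, SE 0.08) and 85.0% in HGFAC-KO mice (-0.23, SE 0.14, not past the threshold). *Ugt1a6a*, a UGT of planar phenols, fell by 0.49 (SE 0.06) and 0.37 (SE 0.07) on the log2 scale. *Ugt1a10* fell in controls to 45.4% of chow from a mean of 0.499 CPM. *Ugt1a5* (log2 fold changes -0.62 and -0.12) and *Ugt1a6b* (-0.14 and -0.17) passed in neither genotype.

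UGT2B enzymes conjugate steroids, bile acids and drugs, and 3 of the 7 genes fell in both genotypes. *Ugt2b36* ran from 428 to 551 CPM (median 509) on chow and from 274 to 391 CPM (median 307) on HF/HS in controls, a log2 fold change of -0.66 (SE 0.08). In HGFAC-KO mice *Ugt2b36* ran from 418 to 495 CPM (median 485) and from 295 to 352 CPM (median 331), a log2 fold change of -0.53 (SE 0.06). *Ugt2b35* and *Ugt2b5*, the most abundant UGT, kept between 59.8% and 71.7% of their chow level, also without overlap of the diets. *Ugt2b1* and *Ugt2b34*, with chow means of 529 and 493 CPM in controls, did not pass in either genotype, nor did *Ugt2b37* and *Ugt2b38*, whose log2 fold changes were below 0 in controls and above 0 in HGFAC-KO mice. *Ugt2a3* passed in controls at a log2 fold change of -0.14 (SE 0.04). The UGT3A genes, which use other sugar donors such as N-acetylglucosamine, passed in neither genotype: *Ugt3a2* stood at 99.8% and 98.5% of its chow level.

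Of the 7 sulfotransferases, 2 rose and none fell in controls, and 1 rose and 1 fell in HGFAC-KO mice. *Sult2a8*, a hepatic sulfotransferase of bile acids, ran from 503 to 632 CPM (median 526) on chow and from 687 to 841 CPM (median 762) on HF/HS in controls, a log2 fold change of 0.45 (SE 0.07, adjusted p = 0.000366 by edgeR). In HGFAC-KO mice *Sult2a8* ran from 372 to 634 CPM (median 555) and from 583 to 823 CPM (median 693), with overlap, a log2 fold change of 0.43 (SE 0.12, adjusted p = 0.0482 by edgeR). That call was lost when any of 10 of the 13 mice was left out (HGFAC-KO chow replicates 1, 4, 5 and 6 and HF/HS replicates 1, 3, 4, 5, 6 and 7), with a highest adjusted p of 0.093. *Sult1b1*, a SULT of thyroid hormones and phenols, ran from 7.25 to 10.9 CPM (median 9.75) on chow and from 9.34 to 15.1 CPM (median 11.3) on HF/HS in controls, a log2 fold change of 0.40 (SE 0.11, adjusted p = 0.0343 by edgeR). It was lost without any of control chow replicates 5, 6 and 7 and control HF/HS replicates 5 and 7, with a highest adjusted p of 0.0719. *Sult1d1*, a SULT of catecholamines, fell in HGFAC-KO mice (log2 fold change -0.60, SE 0.16) and had -0.30 (SE 0.13) in controls. *Sult1a1*, the phenol SULT and the most abundant SULT1 gene, passed in neither (log2 fold changes -0.20 and -0.49), nor did *Sult1c2* (0.21 and 0.44), *Sult2a7* (-0.45 and -0.39) and *Sult5a1* (0.19 and 0.18).

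**Figure D3:**
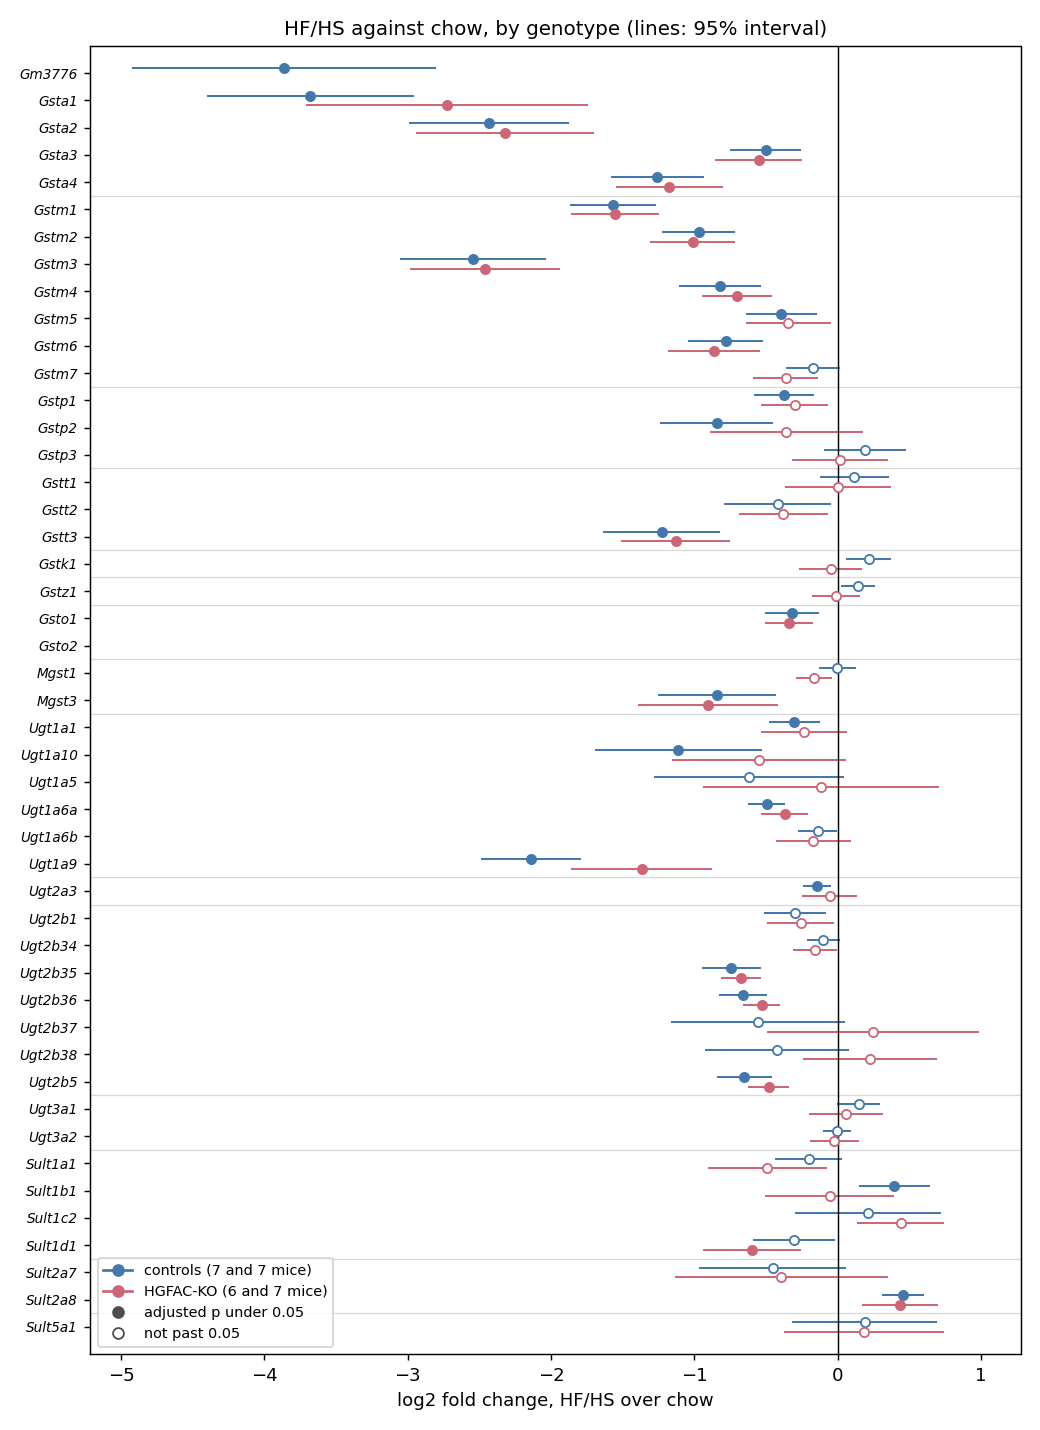
Log2 fold change of HF/HS over chow for each member, grouped by family, in controls and HGFAC-KO mice, with lines for the 95% interval and filled points for an adjusted p under 0.05. Gsta2, Gstm1, Gstm3 and Ugt1a9 lie far to the left in both genotypes, and Sult2a8 lies to the right. Gsta1, and Gm3776 in controls, also lie far to the left but passed the filter only through the chow mice.

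Side by side, and with *Gsta1* and *Gm3776* left out, 39 of the 44 members tested in both genotypes (88.6%) had a fold change of the same sign, against 73.3% of the 13469 genes tested in both. Of these members 17 were called in both, all in the same direction, which were 70.8% of the 24 called in controls and 94.4% of the 18 called in HGFAC-KO mice. Over all genes these shares were 30.03% and 53.6%. No test was made of the difference from all genes. Tested in both genotypes and called in controls alone were *Gstm5*, *Gstp1*, *Gstp2*, *Sult1b1*, *Ugt1a1*, *Ugt1a10* and *Ugt2a3*, and the reverse held for *Sult1d1*. The interaction test below compares the genotypes directly.

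Genes that feed or follow conjugation were read from lists by pathway. Of 8 glutathione supply genes, 4 fell in controls (*Cth*, *Gsr*, *Gclm* and *Gclc*) and 1 in HGFAC-KO mice (*Gsr*), with none higher. *Ugdh*, which makes UDP-glucuronic acid, went from 242 ± 27.7 to 126 ± 9.34 CPM in controls (log2 fold change -0.94, SE 0.07). In HGFAC-KO mice *Ugdh* had 206 ± 32.2 CPM on chow and 110.0 ± 8.95 on HF/HS (-0.90, SE 0.09). Of the 3 genes of that list 2 fell in controls and 1 in HGFAC-KO mice. Of 6 PAPS supply genes tested 1 fell and 1 rose in controls, and of 3 deconjugating enzymes *Gusb* fell in both genotypes. Of 11 other conjugation enzymes *Baat* fell in controls and none passed in HGFAC-KO mice.

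Of 7 conjugate transporters, 3 fell and 3 rose in controls, and 3 fell and 2 rose in HGFAC-KO mice. *Slco1a4*, an uptake carrier of organic anions, fell by 2.18 (SE 0.17) and 2.37 (SE 0.27) on the log2 scale. *Abcc3*, which exports glucuronides to blood, fell in controls (489 ± 68.5 CPM on chow, 214 ± 45.3 on HF/HS) and in HGFAC-KO mice (468 ± 66.9 and 167 ± 47.6 CPM). *Slco1b2* rose in controls by 0.48 (SE 0.08).

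Known target genes of the receptors that control phase II genes were read beside the members, without a test of their part in the result. All 5 CAR and PXR target genes tested fell in both genotypes. In controls *Cyp3a11* stood at 5007 ± 586 CPM on chow and 531 ± 170 on HF/HS, and in HGFAC-KO mice at 5244 ± 863 and 628 ± 160 CPM. The summed level of that list ran from 5091 to 8414 CPM over the chow mice and from 813 to 1620.2 CPM over the HF/HS mice. Of 3 AHR target genes *Cyp1a2* fell in both genotypes, and of 5 NRF2 target genes, among them *Gclc* of the glutathione list, 3 fell in controls and 1, *Nqo1*, in HGFAC-KO mice. Of 11 regulators themselves, *Ppara* rose in controls (log2 fold change 0.42, SE 0.10), and none passed in HGFAC-KO mice, where *Ppara* had 0.46 (SE 0.13). *Nr1i2* (PXR) had log2 fold changes of 0.15 and 0.06, *Nr1i3* (CAR) of -0.12 and -0.30, and *Nfe2l2* (NRF2) of 0.18 and 0.18.

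In whole liver, fewer cells of a type and less RNA per cell cannot be told apart. Of 7 hepatocyte markers 1 fell and 2 rose in controls, and 1 fell and 1 rose in HGFAC-KO mice, and their summed level ran from 81810 to 93926 CPM on chow and from 82020 to 102770 CPM on HF/HS in controls. Of 8 pericentral markers 1 fell and 1 rose in controls, while 4 of 8 periportal markers fell in controls and 2 in HGFAC-KO mice. Of 6 Kupffer cell markers none passed in controls and 3 rose in HGFAC-KO mice, where their sum ran from 99.0 to 153 CPM on chow and from 127 to 224 CPM on HF/HS. Of the stellate, cholangiocyte, endothelial and leukocyte lists at most 1 gene passed in either diet comparison. No marker of these lists was at 0 in every library of a group. Of 4 adipocyte markers 1 was at 0 in every library of each group and the sum was at most 2.22 CPM in a mouse, with 0 of 1 tested called. Of 2 intestine and pancreas markers tested *Fabp2* rose in controls, while 1 or 2 of the 5 markers were at 0 throughout a group. Their part in the members' changes was not tested.

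The genotype comparisons asked whether loss of HGFAC changed these genes on each diet. They share their mice with the diet comparisons and none with each other. No member passed on chow (0 of 46, against 0.00737% of genes) or on HF/HS (0 of 44, against 0.0148%) by edgeR. At an unadjusted p under 0.05 there were 5 members (10.9%) and 812 of 13571 genes (5.98%) on chow, and 8 members (18.2%) and 1306 of 13544 genes (9.64%) on HF/HS, and the difference between these shares was not tested. DESeq2 called 0 on chow and 1 on HF/HS, and limma voom 0 on either diet. No gene of the pathway, target or marker lists passed in either genotype comparison. The hepatocyte markers summed to 93612 to 103780 CPM in HGFAC-KO mice on chow and to 93345 to 120180 CPM on HF/HS, and the pericentral markers on HF/HS to 8787 to 11384 CPM in controls and 5671 to 9503 CPM in HGFAC-KO mice. Their part in the genotype values was not tested. The median log2 fold change of members was -0.06 on chow and -0.03 on HF/HS. The 95% interval of the log2 fold change lay within 0.5 of 0 for 30 members on chow and 26 on HF/HS. Groups did not overlap for 0 members on chow, against 0.133% of genes, and for 1 on HF/HS, against 0.0812%.

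That member was *Mgst1*: on HF/HS the HGFAC-KO mice had 2022 to 2353 CPM (median 2275), all below the controls at 2459 to 2864 CPM (median 2549). The log2 fold change of *Mgst1* was -0.22 (SE 0.06), with an adjusted p of 0.331 by edgeR, 0.317 by limma and 0.00521 by DESeq2. On chow *Mgst1* had a log2 fold change of -0.05 (95% interval -0.18 to 0.07). On HF/HS *Ugt1a9* had 11.3 to 17.9 CPM in controls and 15.1 to 43.5 CPM in HGFAC-KO mice, with overlap and a log2 fold change of 0.70 (SE 0.21, adjusted p = 0.411 by edgeR). It was 0.47 without HGFAC-KO HF/HS replicate 2 and 0.65 without replicate 6, the library with fewer odd counts. *Ugt3a1* had a log2 fold change of -0.28 (SE 0.10) on HF/HS and of -0.19 on chow.

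On chow the smallest p-values belonged to *Ugt2b1*, *Sult1a1* and *Gstm2*. The HGFAC-KO mice had 359 to 496 CPM of *Ugt2b1* (median 447) against 438 to 610.2 CPM (median 522) in controls, which overlapped, a log2 fold change of -0.26 (SE 0.08, adjusted p = 0.801 by edgeR). *Sult1a1* ran from 154 to 241 CPM (median 216) in controls and from 225 to 343 CPM (median 247) in HGFAC-KO mice, a log2 fold change of 0.36 (SE 0.12, adjusted p = 0.801 by edgeR). Its highest value was in HGFAC-KO chow replicate 1, and without that library the log2 fold change was 0.26. *Gstm2* had a log2 fold change of -0.27 (SE 0.09) on chow and -0.32 (SE 0.15) on HF/HS.

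**Figure D4:**
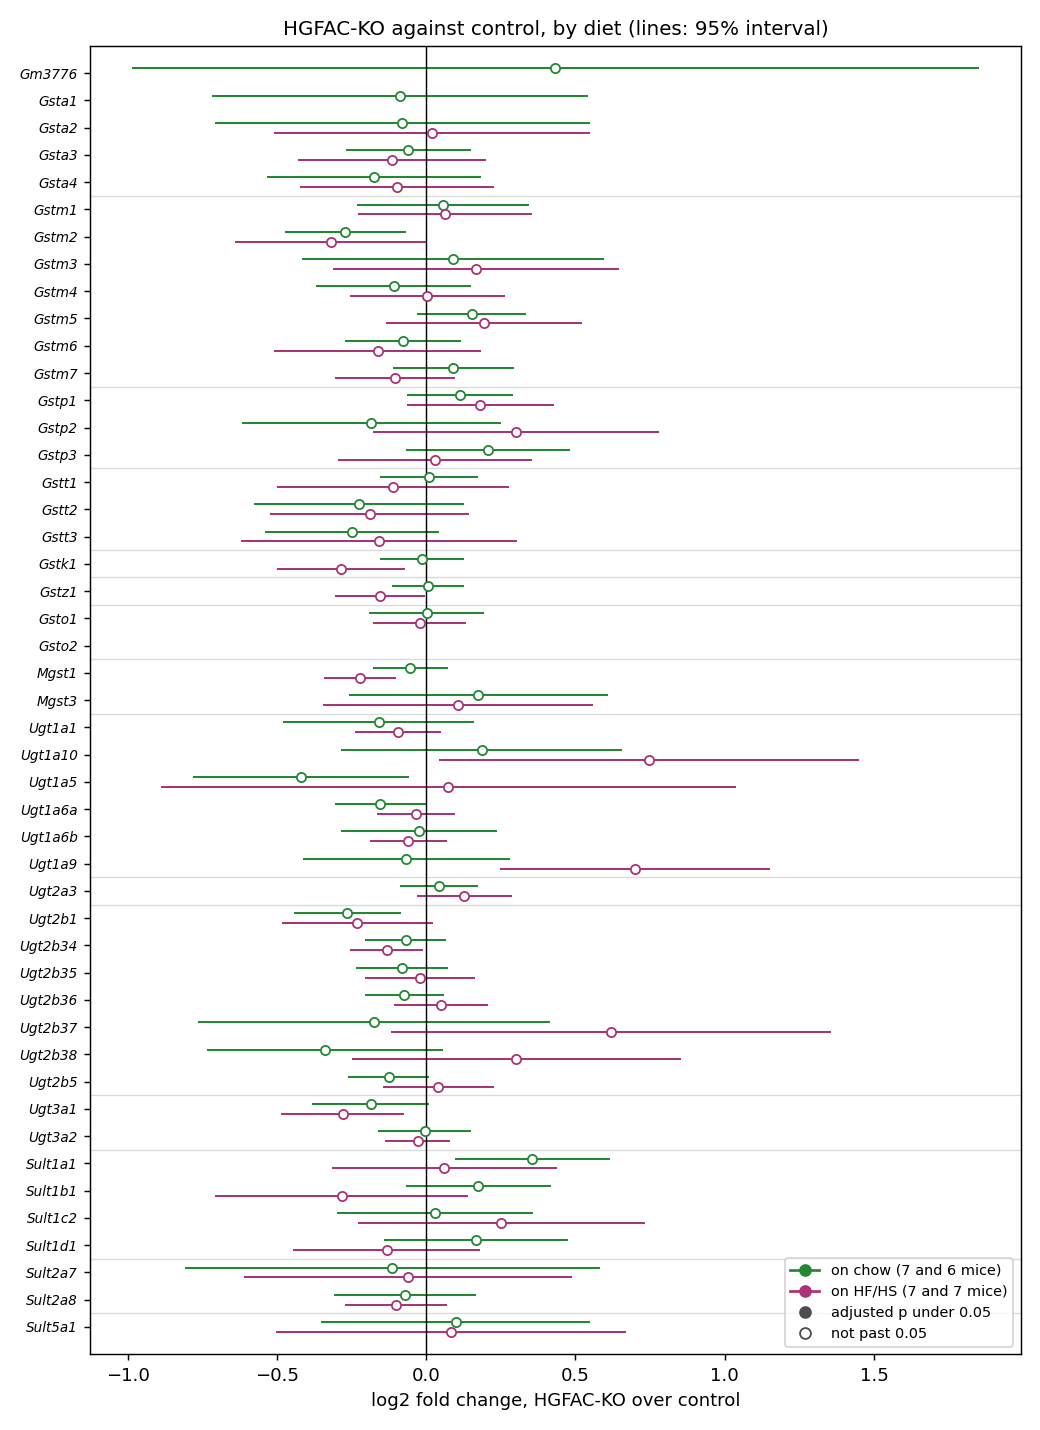
Log2 fold change of HGFAC-KO over control for each member, grouped by family, on chow and on HF/HS, with lines for the 95% interval and open points because no member had an adjusted p under 0.05. Most intervals cross 0. Those on HF/HS that lie on 1 side of it include Mgst1, Ugt1a9, Gstk1 and Gstz1. An unadjusted p under 0.05 by edgeR was found for 5 members on chow and 8 on HF/HS.

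An interaction term fitted to all 27 mice tested whether the diet changed a gene differently in the 2 genotypes. No member passed (0 of 46, against 0% of 13932 genes) by edgeR, DESeq2 or limma voom, and 3 members (6.52%) and 506 genes (3.63%) had an unadjusted p under 0.05 by edgeR. *Ugt1a9* had the smallest p, with a smaller fall in HGFAC-KO mice by 0.77 on the log2 scale (SE 0.28, 95% interval 0.19 to 1.35, adjusted p = 0.984 by edgeR). *Mgst1* (-0.16, SE 0.07) and *Gstk1* (-0.27, SE 0.12) followed. For *Gstm1* and *Gstm3* the 95% intervals of the interaction on the log2 scale were wide, -0.40 to 0.42 for *Gstm1* and -0.61 to 0.78 for *Gstm3*.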

How the data were processed

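The authors captured mRNA from whole liver, made stranded libraries and sequenced them as paired 50-base reads. The reads were aligned with HISAT2 to mm10, and the deposited counts per gene came from featureCounts 1.6.3. Its strand, multi-mapping and annotation settings are not given in the sources used here. Total counts per library were 36056177 to 57298657. HGFAC-KO chow replicate 1 held no odd count and HGFAC-KO HF/HS replicate 6 fewer than the other libraries. Whether these columns are raw read counts is not known. The 3886 of 27179 rows without a gene name held 4.13% to 12.1% of counts and were left out. The labels name separate mice, and p-values measure the spread among them.

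The counts were fitted with edgeR 4.0.16 in R 4.3.3 (filterByExpr, TMM, robust quasi-likelihood test, Benjamini-Hochberg over all genes tested, threshold 0.05), with only the mice of a comparison in each fit and all 27 mice in the interaction, and CPM came from TMM-scaled libraries of all 27 mice. The method was tested on simulated data. Alternatives were DESeq2 1.42.0, limma 3.58.1 voom, other filters and scalings, a replicate block, 1 fit over all mice, summed near-identical members and leaving out each mouse. Halving the counts of HGFAC-KO chow replicate 1, and leaving out both libraries with few odd counts, were chosen after seeing the data. The members and the gene lists (supply, transport, regulators, receptor targets and cell markers) were chosen with earlier results of these data known. Named members were up to 12 called in each direction by p, the 3 smallest p where fewer than 3 passed, and the most abundant gene per kb of each family. The other members were named after their values were seen, so that each is accounted for. Exon lengths came from GENCODE, promoters from RefSeq (GRCm38.p6).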

Additional observations from a re-analysis of the deposited data

Results flagged for a closer look

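Of 120 sets of values (30 members in 4 groups of mice), 10 held a mouse far from the others of its group by Dixon's criterion, which chance alone gives in about 1 in 20. HGFAC-KO chow replicate 1, the library with no odd counts, was apart in 4 of them: *Gm3776* was at 2.15 CPM (0.0464 to 0.440 in the other mice), *Gsta2* at 24.6 CPM (6.31 to 11.9), *Sult1a1* at 343 CPM (225 to 269) and *Ugt1a6a* at 20.7 CPM, the lowest of its group (26.3 to 29.1). HGFAC-KO HF/HS replicate 5 was highest in 3: *Gstm2* at 22.1 CPM (11.7 to 16.2), *Gstt1* at 205.9 CPM (82.1 to 124) and *Gstt3* at 20.8 CPM (7.90 to 13.4). *Ugt2b36* was lowest in HGFAC-KO chow replicate 6 at 418 CPM (477 to 495). *Gsta1* was highest in HGFAC-KO HF/HS replicate 2 at 0.363 CPM (0.0457 to 0.136), and *Gm3776* in control HF/HS replicate 1 at 0.104 CPM (0 to 0.0264).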

How the results depend on the processing

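In the comparison that a member was named for, no fold change changed sign under the alternatives run. The number of members called in controls on HF/HS against chow was 26 and lay between 19 (near-identical members summed, 36 features) and 29 (DESeq2) under other settings, and between 22 (without control chow replicate 5, for example) and 28 (without control chow replicate 4) when 1 mouse was left out. In HGFAC-KO mice it was 19, between 17 and 22 under other settings and between 15 (without HGFAC-KO HF/HS replicate 6) and 20 when 1 mouse was left out. In the genotype and interaction comparisons it was 0 to 0 without any 1 mouse. On HF/HS, HGFAC-KO against control, DESeq2 called 1 member, *Mgst1*, with independent filtering and also 1 when adjusted over all genes, against 0 by edgeR; the cause was not tested. *Sult1b1* in controls was lost in the fit over all 27 mice (adjusted p = 0.132 by edgeR), and *Sult2a8* in HGFAC-KO mice without a filter (0.0545).

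Over all genes, DESeq2 called 13 on chow and 55 on HF/HS for genotype, against 1 and 2 by edgeR, and 1401 against 802 for diet in HGFAC-KO mice. The labels do not say that replicate numbers pair the mice. The correlations of same-numbered mice, as deviations from their group means, ran from -0.25 to 0.37. These values cannot exclude a shared litter or batch. With the replicate block 22 members were called in controls (774 against 1424 genes), 19 in HGFAC-KO mice, and 0 in the genotype and interaction comparisons, and *Sult1b1* in controls was lost (adjusted p = 0.121 by edgeR). *Gsta1*, *Gm3776*, *Gsto2* and *Ugt1a10* rest on few counts.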
